A study of Mus musculus with 14 samples.

Results

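The loci of 6 transcription factors of the endoderm and intestine, Cdx1, Cdx2, Hnf4a, Gata4, Gata6 and Foxa2, were examined for peaks of the histone variant H2A.Z. Members were all peaks that overlapped 1 of 6 fixed windows of the mouse build mm9, and joining peaks that overlapped or touched in any library gave 29 regions of 45028 in the genome. They rested on 90 peaks in 8 peak lists. The windows were on chromosome 18 at 61158000 to 61216000 (Cdx1), chromosome 5 at 148092000 to 148140000 (Cdx2), chromosome 2 at 163312000 to 163420000 (Hnf4a), chromosome 14 at 63797000 to 63885000 (Gata4), chromosome 18 at 11032000 to 11106000 (Gata6) and chromosome 2 at 147848000 to 147893000 (Foxa2).

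H2A.Z was mapped by chromatin immunoprecipitation and sequencing (ChIP-seq) in mouse small intestinal epithelium at 4 stages with 2 libraries each. Embryonic epithelium was taken at E12.5 and at E14.5 by sorting for EpCAM+ CD31- CD45- cells. The adult groups were Lgr5+ intestinal stem cells (ISC), taken as cells high in EGFP, and enterocytes, both at P60 from Lgr5EGFP-Cre-ERT males. All groups were of mixed C57BL/6 CD1 strain, and the labels name no deletion or treatment. The gate described for enterocytes names no marker that separates absorptive cells from other epithelial cells. Identity was not checked against marker genes, because no mm9 gene table was used here. The labels do not say whether the libraries of a stage came from separate animals or pools, so p-values measure only the spread between these libraries. The embryonic side pools E12.5 with E14.5, and the adult side ISC with enterocytes. That spread and each SD therefore also hold differences between stages or cell types. Libraries of the same adult group shared an input, so they were not fully independent.

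H2A.Z replaces the core histone H2A in nucleosomes around transcription start sites and enhancers, where it is placed by the SRCAP and TIP60/p400 complexes, and it is found at active and at poised genes. Cdx2 is the homeobox factor that gives the intestinal epithelium its identity, and Cdx1 is its close paralog. Hnf4a is a nuclear receptor that drives genes of absorption and lipid handling. Gata4 and Gata6 are zinc finger factors, of which Gata4 sets the character of the proximal small intestine. Foxa2 is a forkhead factor that opens chromatin in the early endoderm.

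The RefSeq promoter table held start sites of 3 of these genes, Cdx2, Foxa2 and Hnf4a, and the sequences of the start site richest in CpG are shown because CpG content is a feature of many promoters that carry H2A.Z. Each runs 5′ to 3′ on the gene's strand from 250 bases before to 50 after the start, in build GRCm38.p6, with CpG in capitals. For Hnf4a, both start sites held 4 CpG and both are shown. They identify the genes only, since the peaks are in mm9 and could not be placed on these starts.
Cdx2: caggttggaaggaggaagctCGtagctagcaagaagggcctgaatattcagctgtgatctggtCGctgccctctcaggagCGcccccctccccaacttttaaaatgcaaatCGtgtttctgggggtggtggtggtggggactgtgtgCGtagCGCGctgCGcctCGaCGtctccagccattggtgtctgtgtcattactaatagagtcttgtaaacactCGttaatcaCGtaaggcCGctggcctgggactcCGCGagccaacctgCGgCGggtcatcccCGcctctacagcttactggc
Foxa2: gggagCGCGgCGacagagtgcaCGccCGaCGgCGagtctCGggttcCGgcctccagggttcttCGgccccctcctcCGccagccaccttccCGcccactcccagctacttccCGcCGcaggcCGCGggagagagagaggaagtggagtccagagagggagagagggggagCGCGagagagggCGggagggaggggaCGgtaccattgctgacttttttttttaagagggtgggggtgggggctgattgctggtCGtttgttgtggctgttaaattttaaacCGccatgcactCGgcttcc
Hnf4a upstream start: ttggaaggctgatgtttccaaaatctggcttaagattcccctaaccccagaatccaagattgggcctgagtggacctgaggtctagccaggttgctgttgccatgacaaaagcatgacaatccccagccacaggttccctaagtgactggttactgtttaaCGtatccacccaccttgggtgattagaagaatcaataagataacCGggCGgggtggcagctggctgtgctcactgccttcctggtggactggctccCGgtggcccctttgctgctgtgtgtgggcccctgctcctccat
Hnf4a downstream start: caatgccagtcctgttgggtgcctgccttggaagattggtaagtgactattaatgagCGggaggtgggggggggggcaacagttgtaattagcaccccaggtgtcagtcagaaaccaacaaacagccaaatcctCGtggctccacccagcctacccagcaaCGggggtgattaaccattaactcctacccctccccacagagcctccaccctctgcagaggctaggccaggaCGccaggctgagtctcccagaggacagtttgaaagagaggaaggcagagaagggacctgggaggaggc

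The Cdx2 sequence held 18 CpG, and 28.1% of the 32851 promoters in the table held more. The Foxa2 sequence held 23 CpG, with more in 20.0% of promoters, and each Hnf4a sequence held 4, with more in 62.0%. The median promoter held 7. The other 2 Foxa2 starts held 12 and 13 CpG. So the Cdx2 and Foxa2 promoters were above the median in CpG and both Hnf4a promoters below it.

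Short motifs were searched on both strands. A FOXA motif, TGTTTAC, was found once in the Cdx2 sequence and in 3.65% of all promoters. An HNF1 motif, GTTAAT, was found once in the Cdx2 sequence, at 2 places in that of the downstream Hnf4a start and in 7.10% of all promoters. A GATA motif, AGATAA, was found once in the upstream Hnf4a sequence and in 11.2% of all promoters. The CDX motif TTTATNG, found in 10.9% of all promoters, and the HNF4 motif CAAAGTC, found in 4.44%, were in none of the 4. The printed Foxa2 sequence held none of the 5 motifs. Of the other 2 Foxa2 starts, that with 13 CpG held 1 GATA and 1 HNF1 match and that with 12 CpG held none, and no match overlapped that of another motif. A match of this kind is a description of the letters and not a binding site.

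The depth of the libraries was 27835048 to 41274126 tags, and their lists held 6136 to 32131 peaks. Both E14.5 lists were short, with 17288 and 6136 peaks, against 22177 to 32131 at E12.5 and in ISC, so that a missing peak at E14.5 and a short list cannot be told apart. Enterocyte replicate 1 and E14.5 replicate 2 stood apart in the fragment size that the caller estimated, 67 and 71 bp against 191 to 247 bp, and had narrow peaks. In the 6 windows E12.5 replicate 1 had peaks in 17 regions and E12.5 replicate 2 in 7. E14.5 replicates 1 and 2 had peaks in 3 regions and in 1. ISC replicates 1 and 2 had peaks in 18 and 17, and enterocyte replicates 1 and 2 in 9 and 14. Thus the adult libraries, together with E12.5 replicate 1, held most of the signal at these loci.

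**Figure D1:**
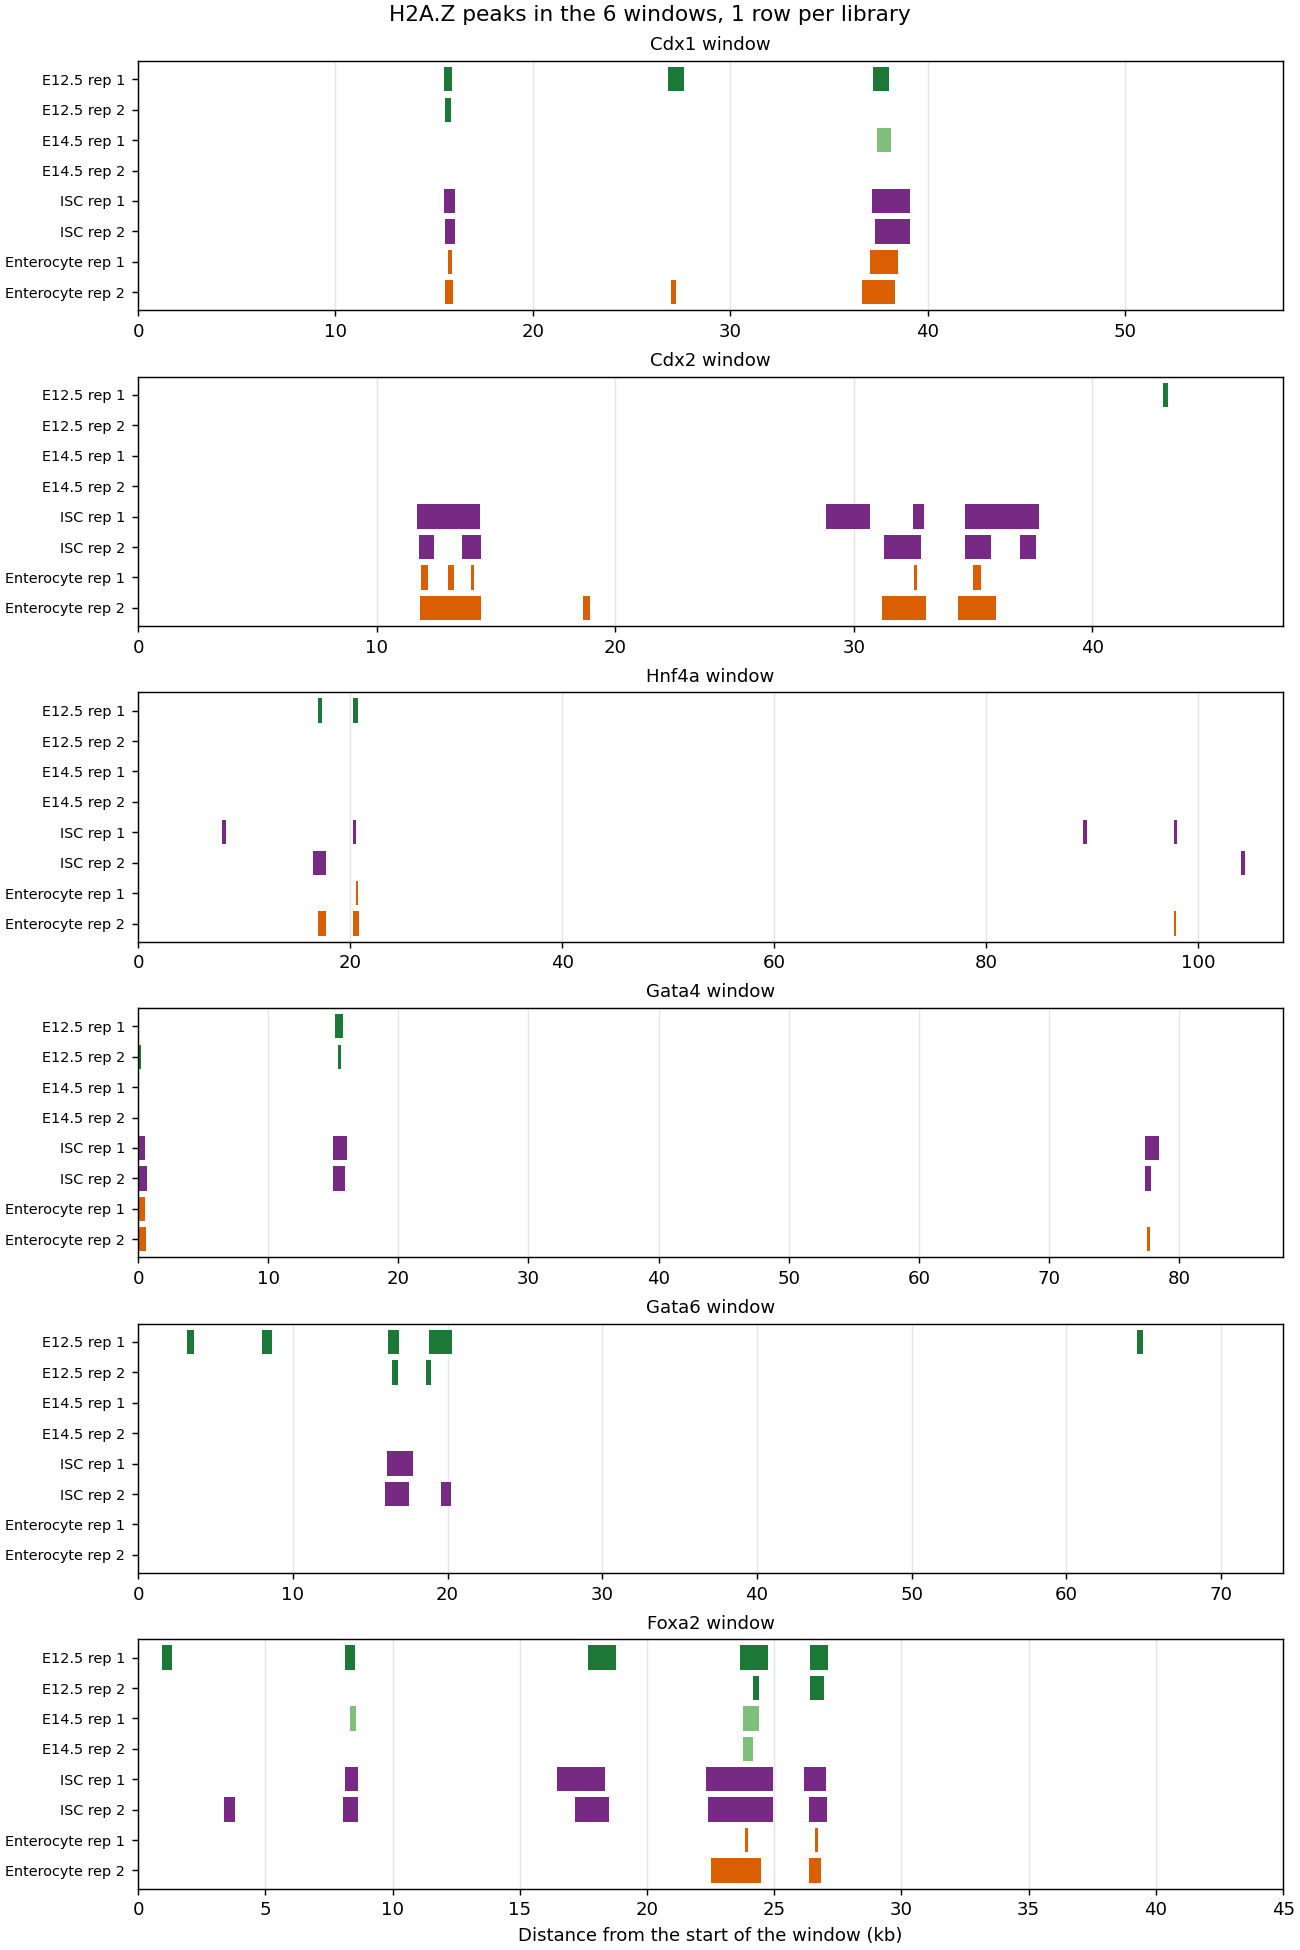
H2A.Z peaks in the 6 windows, with 1 row per library and the distance from the start of the window in kb on the horizontal axis; bars are peaks drawn to scale and clipped to the window. The Cdx2 window is empty in 3 of 4 embryonic libraries, and the Gata6 window is empty in E14.5 and enterocytes.

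The Cdx2 locus had peaks in all 4 adult libraries and almost none in the embryo. H2A.Z peaks covered 8085 and 4770 bp of the window in ISC replicates 1 and 2, and 1152 and 6273 bp in enterocyte replicates 1 and 2. They covered 216 bp in E12.5 replicate 1 and were listed at 0 bp in the other 3 embryonic libraries. The lowest adult library was above the highest embryonic one, so the sides did not overlap. Of the 22479 genome tiles of 50 kb that held a peak, 2.81% separated in the same direction and 0.24% in the other. That other direction, with all embryonic libraries higher, was seen at 0 of the 6 loci. A tile counted if at least 1 library had a peak in it, and tiles with a peak in fewer than 4 libraries could not separate. The share among tiles with peaks in more libraries was not computed. The mean was 5070 ± 2943 bp in adult and 54 ± 108 bp in embryonic libraries (SD, n = 4 per side), with a p of 0.0286 in the two-sided exact permutation test, the smallest this design can give. After Benjamini-Hochberg adjustment over the tiles and the 6 windows the difference did not pass the test (adjusted exact p = 0.722). No feature did, since 0 of 22485 (0.0%) had an adjusted p below 0.05, whereas 686 had an unadjusted exact p below 0.05. With 0.0286 as the smallest p, an adjusted p below 0.05 would need most features to reach it. The adjustment therefore could not single out a locus, and nothing is concluded from its outcome. The adjusted p ranged from 0.208 to 1 over the alternatives. With the 6136 strongest peaks of each library, the length of the shortest list, the Cdx2 difference of 5016 bp shrank to 89.5 bp.

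Of the 6 regions in the Cdx2 window, 3 had a peak in every adult and in no embryonic library, a pattern shown by 1.8% of all regions in the genome. They were Cdx2 region 1 at 148103710 to 148106379, region 4 at 148123190 to 148125045 and region 5 at 148126383 to 148129768, counted along the chromosome. No other locus had such a region, and none of the 29 regions showed the reverse, as did 0.193% in the genome. With those lists of equal length, for which no genome share was computed, 0 of the Cdx2 regions were called. Among those strongest peaks was 1 of the 19 Cdx2 peaks, that of region 5 in enterocyte replicate 1. With a −log10 q of at least 2, Cdx2 region 5 was called together with Gata4 region 1. When a library had to cover at least 50% of a region, none of the 3 Cdx2 regions was called. The highest −log10 q per library in the 3 Cdx2 regions ran from 1.34, in enterocyte replicate 1 at region 4, to 7.75, in ISC replicate 1 at the same region.

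Cdx2 region 5 was 3386 bp wide, and 1.03% of all regions were wider. Its peaks covered 3115 bp in ISC replicate 1, 1769 bp in ISC replicate 2, 358 bp in enterocyte replicate 1 and 1565 bp in enterocyte replicate 2. Cdx2 region 1 was 2670 bp wide, with 2625 and 1448 bp covered in ISC and 703 and 2559 bp in enterocytes, where replicate 1 split it into 3 peaks. Region 4 was 1856 bp wide, with 478 and 1553 bp in ISC and 91 and 1856 bp in enterocytes. In all 3 regions enterocyte replicate 1 had the narrowest coverage. Regions 3 to 5 lay within 8.95 kb, with gaps of 503 and 1337 bp. Region 3 was called in ISC replicate 1 alone, and region 2, of 293 bp, in enterocyte replicate 2 alone. The embryonic peak, in region 6, was 216 bp wide, which equals the fragment size estimated for its library.

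Several Cdx2 peaks were wide but lower in fold than most wide peaks of their list. The fold of a peak is its pileup over the local background of the input, as the authors' caller computed it, and is used here only for its place within 1 list. The peak of region 5 in ISC replicate 1 was among the widest 1.33% of that list but at 89.2% from the top by fold, with a fold of 2.48. Of the 1350 widest peaks of that list, 5% of all, 1.41% had a lower fold. The peak of region 1 in the same list was at 2.86% by width and at 67.7% by fold. In enterocyte replicate 2 the peak of region 1 was at 1.65% by width and at 44.5% by fold. The widest 5% of peaks had a median place by fold of 29.7% in ISC replicate 1 and 27.4% in enterocyte replicate 2, so the Cdx2 peaks lay below the usual fold of wide peaks in these lists. Of the 19 Cdx2 peaks, 7 were among the widest 25% of their list and 0 among the highest 25% by fold.

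**Figure D2:**
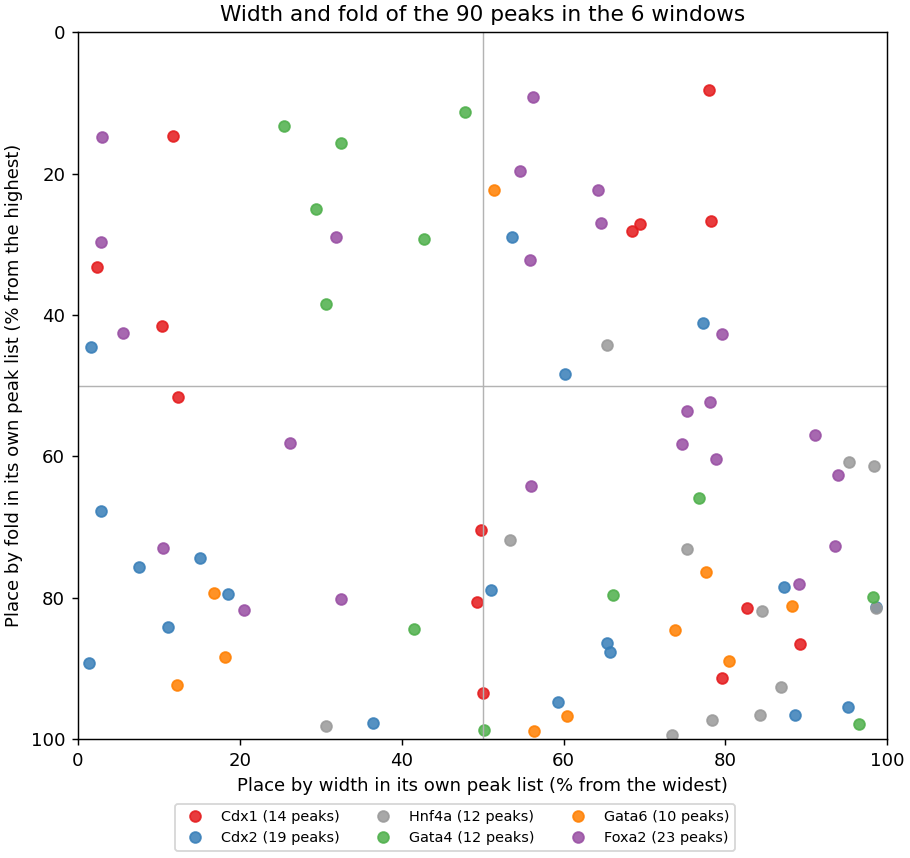
Place of each of the 90 peaks in its own list by width (horizontal axis, % from the widest) and by fold (vertical axis, % from the highest, highest at the top), coloured by locus; lines mark the middle of the lists. The widest Cdx2 peak, at 1.33% by width, lies low in the plot at 89.2% by fold, and the wide Foxa2 peaks of both ISC libraries lie higher, at 29.7% and 14.8%.

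The Cdx1 locus held listed H2A.Z peaks in 3 regions, in every library but E14.5 replicate 2. The window was covered over 2020 and 333 bp at E12.5, 729 and 0 bp at E14.5, 2486 and 2308 bp in ISC, and 1594 and 2365 bp in enterocytes. E12.5 replicate 1 lay above enterocyte replicate 1, so embryonic and adult libraries overlapped. The means were 770.5 ± 885 bp in embryonic and 2188 ± 403 bp in adult libraries (SD, n = 4 per side; p = 0.0571 by exact permutation, 0.722 after adjustment).

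Cdx1 region 1, at 61173474 to 61174066 on chromosome 18, had a peak in both E12.5, both ISC and both enterocyte libraries and in neither E14.5 library. Its fold in E12.5 replicate 1, 5.37, was at 8.19% from the top of that list, the best place of all 90 peaks. In E12.5 replicate 2 the same region stood at 81.4%, with a fold of 2.80, while its pileup was 26.7 in replicate 1 and 25.1 in replicate 2. The lists differ in length, so places are given for each library and read as no difference in strength between libraries. Its places were 27.1% and 28.2% in ISC and 91.3% and 26.6% in enterocytes.

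Cdx1 region 3, at 61194685 to 61197096, was the wide one, with 2412 bp. Its peaks spanned 1898 and 1774 bp in ISC and 1402 and 1671 bp in enterocytes, against 808 bp in E12.5 replicate 1 and 729 bp in E14.5 replicate 1, and none in the other embryonic libraries. The adult peaks were thus the wider ones, also in enterocyte replicate 1, where it was among the widest 2.31% of the list. By fold the peaks were at 33.3% and 14.6% in enterocytes, 41.6% and 51.6% in ISC, and 80.6% and 93.5% in the embryonic libraries that had it. Region 2, of 802 bp, had a peak in E12.5 replicate 1 and enterocyte replicate 2. With the 6136 strongest peaks per library, region 3 was called in both enterocyte and neither ISC library.

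The Hnf4a locus was sparse at every stage. Covered length was 866 bp in E12.5 replicate 1, listed at 0 in the other 3 embryonic libraries, and 1289 and 1592 bp in ISC with 219 and 1552 bp in enterocytes, in a window of 108 kb. Embryonic and adult libraries overlapped, with means of 216.5 ± 433 and 1163 ± 643.5 bp (SD, n = 4 per side; p = 0.0571 by exact permutation, 0.722 after adjustment). No region of the 6 had a peak in both libraries of ISC, of E12.5 or of E14.5, and Hnf4a region 3, at 163332264 to 163332850 on chromosome 2, was the only one in both enterocyte libraries.

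Region 3 also had peaks in E12.5 replicate 1 and ISC replicate 1. Its best place by fold was 44.3%, in enterocyte replicate 2, with a fold of 3.85, and the fold of 4.05 in enterocyte replicate 1 was at 73.0% of that list. The widest region, region 2 at 163328530 to 163329765, covered 406 bp in E12.5 replicate 1, 1236 bp in ISC replicate 2 and 776 bp in enterocyte replicate 2. The other 4 regions were 288 to 392 bp wide and had a peak in 1 or 2 libraries. None of the 12 Hnf4a peaks was among the 6136 strongest of its list, 6 had a −log10 q below 2, and the highest was 4.15, in region 3 of enterocyte replicate 2.

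The Gata4 locus had H2A.Z peaks at E12.5 and in both adult cell types in 3 regions, with no listed peak at E14.5. The E12.5 peaks were weak, with a −log10 q of 1.49 to 2.54. Covered length inside the window was 554 and 463 bp at E12.5, 0 and 0 bp at E14.5, 2699 and 1949 bp in ISC, and 536 and 823 bp in enterocytes. The ISC libraries were the highest, and enterocyte replicate 1 lay below E12.5 replicate 1. Adult libraries had a mean of 1502 ± 1004 bp and embryonic ones 254 ± 296 bp (SD, n = 4 per side; p = 0.0571 by exact permutation, 0.722 after adjustment). With lists of equal length the Gata4 difference was 642 bp, and the adult libraries then lay above all embryonic ones, as they did for covered share over genome share (p = 0.0286 by exact permutation in both, 0.388 and 0.362 after adjustment). The corresponding differences were 768 bp at Cdx1 and 789 bp at Foxa2, against 1418 and 2092.5 bp in the full lists.

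Gata4 region 2, at 63811955 to 63813019 on chromosome 14, had a peak in both E12.5 and both ISC libraries and in no other. Its peaks were 554 and 219 bp wide at E12.5, against 1065 and 862 bp in ISC. By fold it stood at 11.2% in ISC replicate 2 and 29.3% in ISC replicate 1, but at 79.6% and 97.8% in the E12.5 lists. Gata4 region 1, at 63796215 to 63797651, crossed the start of the window. It had a peak in all 4 adult libraries, at 25.1% and 38.4% by fold in the ISC lists and at 15.7% and 13.3% in the enterocyte lists, and a low one, at 98.7%, in E12.5 replicate 2. Gata4 region 3, at 63874405 to 63875498, had peaks of 1088 and 435 bp in ISC and of 200 bp in enterocyte replicate 2.

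The Gata6 locus had H2A.Z at E12.5 and in ISC, with no peak in either enterocyte or either E14.5 library. Covered length was 3818 and 641 bp at E12.5, 1646 and 2274 bp in ISC, and listed at 0 in the other 4 libraries. The ISC libraries lay between the E12.5 libraries. The embryonic mean was 1115 ± 1827 bp and the adult mean 980.0 ± 1160 bp (SD, n = 4 per side; p = 1 by exact permutation, 1 after adjustment). The sign of this difference turned without E12.5 replicate 1, to 766 bp more in adult libraries, and to 192 bp without enterocyte replicate 1 or without enterocyte replicate 2.

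Gata6 region 3, at 11047964 to 11049740 on chromosome 18, had a peak in both E12.5 and both ISC libraries and in no other. Its peaks were 772 and 354 bp wide at E12.5 and 1646 and 1567 bp in ISC. By fold it was at 22.3% in E12.5 replicate 1, with a fold of 4.51, and at 79.3 to 89.0% in the other 3. Its peaks were thus wider in both ISC libraries than in both E12.5 libraries. Region 4, at 11050627 to 11052313 and 886 bp further on, had peaks of 1539 and 287 bp at E12.5 and of 707 bp in ISC replicate 2. The remaining Gata6 regions, 1, 2 and 5, were 415 to 636 bp wide and had a peak in E12.5 replicate 1 alone.

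The Foxa2 locus was the only one with a listed peak in all 8 libraries. In E14.5 replicate 2 and enterocyte replicate 1 none of its peaks reached a −log10 q of 2. Peaks spanned 3703 and 789 bp of the window at E12.5, 872 and 405 bp at E14.5, 5867 and 5604 bp in ISC, and 234 and 2434 bp in enterocytes. The ISC libraries were the highest and enterocyte replicate 1 the lowest of all 8. Adult libraries had 3535 ± 2697 bp and embryonic ones 1442 ± 1521 bp (SD, n = 4 per side; p = 0.257 by exact permutation, 0.816 after adjustment). This difference of 2092.5 bp was 1315 bp without ISC replicate 1 and 3193 bp without enterocyte replicate 1.

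Foxa2 region 5, at 147870335 to 147872970 on chromosome 2, was the 1 region of 29 with a peak in every library, a property of 8.88% of regions in the genome. Its coverage was 1108 and 263 bp at E12.5, 642 and 405 bp at E14.5, 2636 and 2546 bp in ISC, and 131 and 1984 bp in enterocytes. Both ISC peaks were among the widest of their lists, at 2.81% and 3.04%, and in fold at 29.7% and 14.8%. Unlike the wide Cdx2 peaks, that of ISC replicate 1 had a higher fold than 50.1% of the widest 5% of its list, and that of ISC replicate 2 than 71.2%. The E14.5 peaks were at 64.2% and 81.8% by fold.

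Foxa2 region 6, at 147874191 to 147875115, had peaks in both E12.5, both ISC and both enterocyte libraries. It held the highest −log10 q of all 29 regions, with values of 17.5 and 19.3 in ISC, 8.69 and 6.97 at E12.5, and 1.95 and 3.30 in enterocytes. By fold it was at 19.6% and 9.13% in ISC. Region 4, at 147864463 to 147866768, was 2306 bp wide and had peaks of 1895 and 1343 bp in ISC and 1097 bp in E12.5 replicate 1. Region 3, at 147856072 to 147856657, had peaks in both ISC libraries, E12.5 replicate 1 and E14.5 replicate 1. Regions 3 and 4 were thus without a peak in enterocytes. Regions 1 and 2, of 400 and 419 bp, were called in 1 library each.

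**Figure D3:**
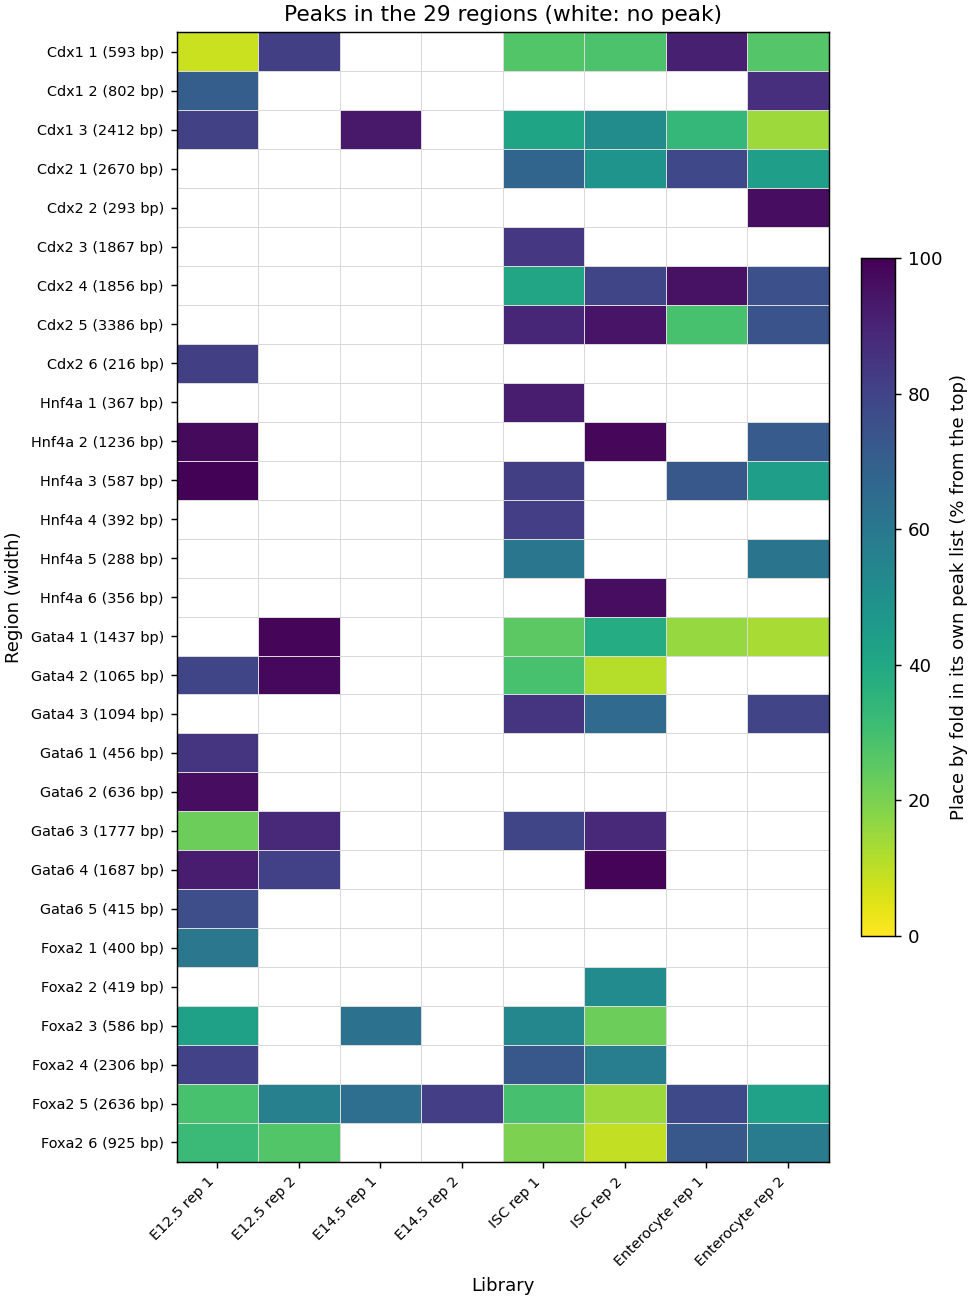
The 29 regions (rows, with their width) in the 8 libraries (columns); colour gives the place by fold of the region's highest peak in its own list, in % from the top, and white means no peak. The E14.5 columns hold 3 and 1 peaks, and at Hnf4a no peak stands above 44.3%.

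The stage comparisons of the full lists were set beside the same counts over the genome. For lists of equal length and for left-out libraries no genome share was computed, so those counts stand without one. From E12.5 to E14.5, 5 of 29 regions had a peak in the E12.5 pair and none in the E14.5 pair, against 10.4% of all regions: Cdx1 region 1, Gata4 region 2, Gata6 regions 3 and 4 and Foxa2 region 6. None showed the reverse, as did 0.127% of all regions. The share of 17.2% at these loci was above the background, but with so few regions and the short E14.5 lists it was not read as particular to them. Without E12.5 replicate 2, when a call needs fewer libraries, the count was 14, and with the 6136 strongest peaks per library it was 0.

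Between E14.5 and ISC, 10 of 29 regions (34.5%) had a peak in both ISC and neither E14.5 library, against 21.8% of all regions. These were Cdx1 region 1, Cdx2 regions 1, 4 and 5, the 3 Gata4 regions, Gata6 region 3 and Foxa2 regions 4 and 6. None had peaks in both E14.5 and neither ISC library, against 0.247% of all regions. The share of 34.5% was above the background. With so few regions and the short E14.5 lists, it was not read as particular to these loci. With the 6136 strongest peaks per library Foxa2 region 6 alone was called.

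Between ISC and enterocytes, 4 of 29 regions (13.8%) had a peak in both ISC and neither enterocyte library, near the 15.5% of all regions. They were Gata4 region 2, Gata6 region 3 and Foxa2 regions 3 and 4. None had the opposite pattern, as did 0.233% of all regions. The enterocyte lists were the shorter ones, with 14256 and 20483 peaks against 26925 and 32131, and with the 6136 strongest peaks per library none of these 4 regions was called. Foxa2 region 6 was then called for ISC and Cdx1 region 3 for enterocytes. Leaving out ISC replicate 1 gave 8 regions, and leaving out ISC replicate 2 gave 7, as a call then needs fewer libraries. In the full lists the opposite pattern was seen in 1 region without ISC replicate 1, and in 2 when enterocyte replicate 1 was left out. A peak in both E12.5 and both ISC libraries and in no other was found in 2 of 29 regions (6.90%), against 1.86% of all regions. They were Gata4 region 2 and Gata6 region 3. This pattern needs no peak at E14.5 and in enterocytes, the stages with the shorter lists. With so few regions it was not read as particular to these loci. The peak of Gata4 region 2 in E12.5 replicate 2 had a −log10 q of 1.65, so that region lost the pattern at a bound of 2. Comparisons of 2 against 2 libraries cannot reach an exact p below 0.05, and no test was made of these counts.

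**Figure D4:**
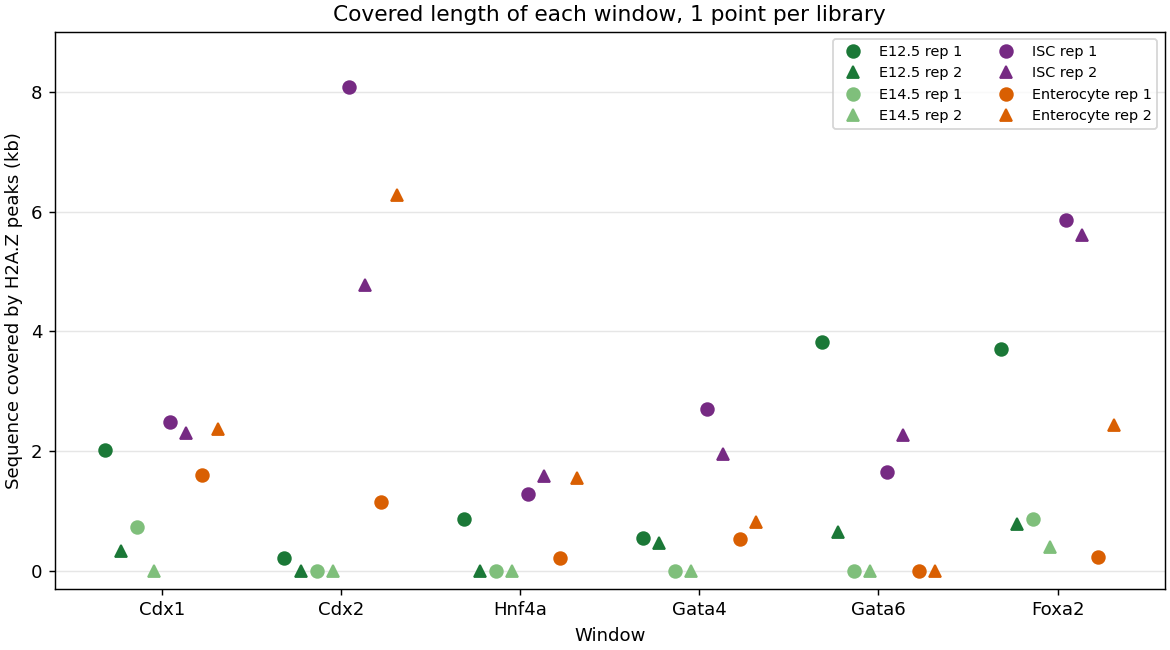
Length of each window covered by H2A.Z peaks (vertical axis, kb), with 1 point per library, circles for replicate 1 and triangles for replicate 2, coloured by stage. Adult points lie above all embryonic points at Cdx2 alone, between 1152 and 8085 bp against at most 216 bp.

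Relative to the whole list, peaks at these loci were modest. Their median place by fold was 72.8% from the top, and 10 of 90 were in the highest 25% of their list. Among the 6136 strongest peaks of each library by p were 15 of the 90 (16.7%), against 29.7% of all 165455 peaks. They were spread unevenly, with 5 at Foxa2, 4 each at Cdx1 and Gata4, and 1 each at Cdx2 and Gata6. The list of E14.5 replicate 2 is itself 6136 peaks long, so its Foxa2 peak is among the 15 by construction, and without that library the shares were 15.7% and 27.0%. The median width of the 29 regions was 802 bp, against 796 bp for all regions. The covered share of all windows, divided by the covered share of the genome in the same library, was 3.45 and 2.57 in ISC, 2.37 and 3.07 in enterocytes, and lower in embryos, with 2.11 and 0.539 in the E12.5 pair and 0.509 and 1.01 in the E14.5 pair. All 4 adult libraries lay above all embryonic ones in this ratio, but only with the Cdx2 window included. Without it, an alternative chosen after seeing the data, the ratio was 2.34 in E12.5 replicate 1, against 2.47 and 2.15 in ISC and 1.85 in each enterocyte library, so that E12.5 replicate 1 lay above 3 of 4 adult libraries.

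By that ratio across the 8 libraries, Hnf4a and Gata4 were the most alike of the loci, with a mean absolute difference of 0.489, followed by Gata4 and Gata6 with 0.942. Hnf4a and Foxa2 were the least alike, with 4.83. Cdx2 was nearest to its paralog Cdx1, with 3.25, but Cdx1 was nearer to Gata4 (1.82), Gata6 (2.06) and Hnf4a (2.16) than to Cdx2. The difference is not scaled, so loci with low ratios come out alike whatever their pattern. The highest ratio was 1.38 at Hnf4a and 2.02 at Gata4. At Foxa2 the ratio was 9.43 in E14.5 replicate 2, from a peak of 405 bp. The libraries share their list length and fragment size across loci, so these figures describe the lists and carry no test.

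Peaks of a window were not assigned to a gene. In RefSeq's order of genes (GRCm38.p6) the nearest coding neighbours are Slc6a7 and Pdgfrb for Cdx1, Pdx1 and Urad for Cdx2, R3hdml and Ttpal for Hnf4a, and Neil2 and Blk for Gata4. Hnf4aos overlaps Hnf4a and Gata6os overlaps Gata6. The windows were wider than the RefSeq gene by 40.7 to 41.9 kb, except that of Gata4, which was wider by 15.2 kb. The windows were not checked against an mm9 annotation, and whether the Gata4 window holds the whole gene is not known, so its covered lengths and its 3 regions describe the window only.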

How the data were processed

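The deposited data are 1 list of H2A.Z peaks per library, which the authors called library by library against input DNA (MACS 2.1.0.20140616, broad calling, q cutoff 0.05), per the file headers. Each embryonic library had its own input, while both ISC libraries shared 1 and both enterocyte libraries another, as the headers show. Named in the submitters' processing notes are bcl2fastq 1.8.4, Bowtie 1.1.2, SAMtools 1.2 and mm9. The pileup is a coverage signal, −log10 p and −log10 q measure evidence in 1 library, and the fold is a ratio to local background, all as deposited. Such values served to rank or filter peaks within a list.

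Peaks were joined into regions where they overlapped or touched (Python 3.11.15, pandas 2.3.3, numpy 2.4.6). Covered length is the peak sequence inside a window. It was compared between 4 embryonic and 4 adult libraries by an exact two-sided permutation test over 35 splits, with Benjamini-Hochberg adjustment over the 6 windows and 22479 tiles of 50 kb with a peak. A region was called for a side when all its libraries and none of the other side had a peak. The functions were tested on simulated data. Windows, members, motifs and lists were chosen with earlier results of these data known. All 6 loci were named, with every region found in all 8 libraries, every region called in a comparison, and the widest and highest in fold of each locus; other regions named were chosen after their values were seen. The 6 input samples entered only through peak calling. Other transcription factors and cell type markers were not analysed here, because no mm9 gene table was used. Alternatives were other q bounds (2 and 10), equal numbers of peaks, joining within 500 bp, 50% coverage, peak midpoints, a ratio to genome coverage, a replicate block and leaving out libraries.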

Additional observations from a re-analysis of the deposited data

Results flagged for a closer look

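In covered length, E12.5 replicate 1 passed the limit for a gap to the remaining embryonic libraries at 4 loci. Dixon's gap test was used on 12 groups, and chance alone gives such a gap in about 1 of 20. Its value was 216 bp at Cdx2, where the other 3 were listed at 0, 866 bp at Hnf4a, where they were also listed at 0, 3818 bp at Gata6, against at most 641 bp, and 3703 bp at Foxa2, against at most 872 bp. At Cdx2 and Hnf4a, where the others are all at 0, any value above 0 passes, so those gaps carry no information on its size. It had the longest peak list of the embryonic libraries, with 26059 peaks, and the part of list length in these values was not tested.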

How the results depend on the processing

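Stricter lists removed most calls at these loci. The share of all regions called was computed with the full lists and the main rule only. Whether the changes in counts given here differ from those over the genome is therefore not known. With a −log10 q of at least 10, the counts were 0 for E12.5 over E14.5, 1 for ISC over E14.5, 1 for ISC over enterocytes and 0 for adult over embryonic. The list of enterocyte replicate 1 held no peak at all at that bound. No region could thus be called for adult over embryonic, and that library could not count against an ISC call. The highest −log10 q in the list of E14.5 replicate 2 was 10.8. That list too could therefore hardly count against the call of ISC over E14.5 at that bound. The difference in covered length was then 0 at Cdx2, Hnf4a and Gata6, and the widest region had a peak in 0 libraries at Cdx1, Cdx2, Hnf4a and Gata6 and in 1 at Gata4 and at Foxa2. With equal numbers of peaks the same counts were 0, 1, 1 and 0, beside 1 for enterocytes over ISC; the difference was 0 at Hnf4a, and the widest region had a peak in 2 libraries at Cdx1 and Foxa2, 1 at Cdx2 and Gata6, 0 at Hnf4a and 3 at Gata4, against 6, 8, 4, 4, 3 and 5 in the full lists. With at least 50% of a region covered, the counts were 2 for E12.5 over E14.5, 11 for ISC over E14.5, 6 for ISC over enterocytes and 1 for adult over embryonic. That 1 was Cdx1 region 3, and the 3 Cdx2 regions were no longer called. Enterocyte replicate 1 covered 26.3%, 4.90% and 10.6% of Cdx2 regions 1, 4 and 5. Without both libraries of short fragment size, an alternative chosen after seeing the data, enterocytes over ISC had 2 regions. Adult over embryonic then had the 3 Cdx2 regions and Gata4 region 3. Leaving out 1 library gave 5 to 14 regions for E12.5 over E14.5, 4 to 8 for ISC over enterocytes, 0 to 2 for the reverse and 3 to 4 for adult over embryonic. Leaving out libraries loosens the rule for a call. Such settings therefore tend to add regions and say little on whether a call holds. The Gata6 difference, adult minus embryonic, ran from -566 to 766 bp, with 766 bp without E12.5 replicate 1 and 192 bp without enterocyte replicate 1 or without enterocyte replicate 2, against -135 bp with all 8. The Cdx2 difference ran from 4011 to 6322 bp. Joining within 500 bp and the midpoint rule left these counts unchanged. The smallest gap between regions of a window was 503 bp, so joining had nothing to join there. In all 15 alternatives run, no locus had an adjusted exact p below 0.05, an outcome all but fixed in advance by the smallest exact p possible.

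The labels do not say whether libraries with the same replicate number were paired. Deviations of same-numbered libraries correlated between -0.538 and 0.219 over tiles, which cannot settle it. The libraries of short fragment size carry different numbers, replicate 2 at E14.5 and replicate 1 in enterocytes, and their part in these values was not tested. With exchange only within a replicate number (replicate block), the smallest exact permutation p possible was 0.0556. The Cdx2 difference of 5016 bp reached it (adjusted exact p = 0.856). Calls of regions rest on presence alone and do not use the block. The causes of the changes under the alternatives were not tested.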
